A study of Mus musculus with 16 samples.

Results

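The cells described here are lung cells that were sorted as CD4+ IL-4eGFP+ but for which no complete T-cell receptor was recovered. They were chosen as barcodes of the 2 lung libraries with more than 500 UMIs (unique molecular identifiers, each a counted mRNA molecule), more than 500 genes and less than 7% mitochondrial UMIs that lacked either a productive TRA or a productive TRB contig, or both. There were 731 of them (523 from the lung of mouse 1 and 208 from that of mouse 2) among 2229 lung cells that passed the same filters, and among 5938 passing cells of lung and mesenteric lymph node (MLN) together. The other 1498 lung cells had both chains and are called full TCR cells. The study set out to describe Th2 heterogeneity and the exchange of clones between organs after helminth infection. All cells came from 2 IL-4eGFP reporter (4get) mice on the C57BL/6 background, all adult, that carried the same infection with 500 larvae of Nippostrongylus brasiliensis and were sampled at day 10, so that no uninfected control was among the samples used. About 5000 sorted cells went into each library, 1 per mouse and organ, and gene expression and V(D)J libraries were prepared from the same cells by 5′ chemistry. The lungs were perfused, digested and enriched on Percoll, and Fc receptors were blocked before the CD4 stain. With 1 lung library per mouse, every comparison rests on 2 mice. Of the barcodes of the 523 cells of lung 1, 2 also passed in MLN 1 and 1 in MLN 2, of the 208 of lung 2, 3 also passed in MLN 1, and none was shared between the lungs.

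In 4get mice the eGFP reporter follows the Il4 gene and marks any cell in which that locus has been opened, not only cells that secrete the cytokine. Besides Th2 cells, basophils, mast cells and eosinophils carry the reporter. Basophils are short-lived blood granulocytes that bind IgE through the receptor FcεRI, store histamine and the protease mMCP-8 in granules, and enter the lung in worm infection. A conventional T cell rearranges one α and one β chain gene (TRA and TRB), and the pair reaches the surface only in complex with the CD3 γ, δ, ε and ζ chains. A single-cell V(D)J assay reads these rearranged transcripts, and a contig is called productive when it spans V to J in frame with no stop codon.

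The missing chains were of several kinds. In lung 1, 181 cells had a productive TRB contig only, 96 a TRA only, 18 had contigs of which none was productive, and 228 had no TCR contig. In lung 2 these numbers were 48, 48, 6 and 106. Cells without any contig were thus the largest class in each lung, with 334 of the 731 cells in all. Cells without a full TCR made up 32.6% of lung 1 (95% exact Clopper-Pearson interval 30.3 to 34.9%) and 33.3% of lung 2 (29.6 to 37.2%). In the MLN they made up 12.4% of mouse 1 (11.2 to 13.7%) and 16.1% of mouse 2 (13.8 to 18.7%). The lung share lay above the MLN share in both mice, the means of 32.96 and 14.26% differed by 18.7 percentage points, and the exact two-sided permutation test gave p = 0.333, the smallest value that 2 against 2 libraries allow. All intervals here cover counting error only.

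The share depended strongly on the depth of the cell. Among lung 1 cells with fewer than 2000 UMIs, 85.1% lacked a full TCR. The share was 62.8% from 2000 UMIs, 27.4% from 4000 UMIs and 15.1% from 8000 UMIs upwards. Lung 2 gave 83.3, 45.7, 27.4 and 13.1% in the same classes. In MLN 1 the 4 values were 61.1, 16.9, 7.60 and 5.92%, and in MLN 2 they were 69.4, 23.3, 11.6 and 4.44%. Every library fell from class to class, and both lungs lay above both MLNs in each class.

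**Figure D1:**
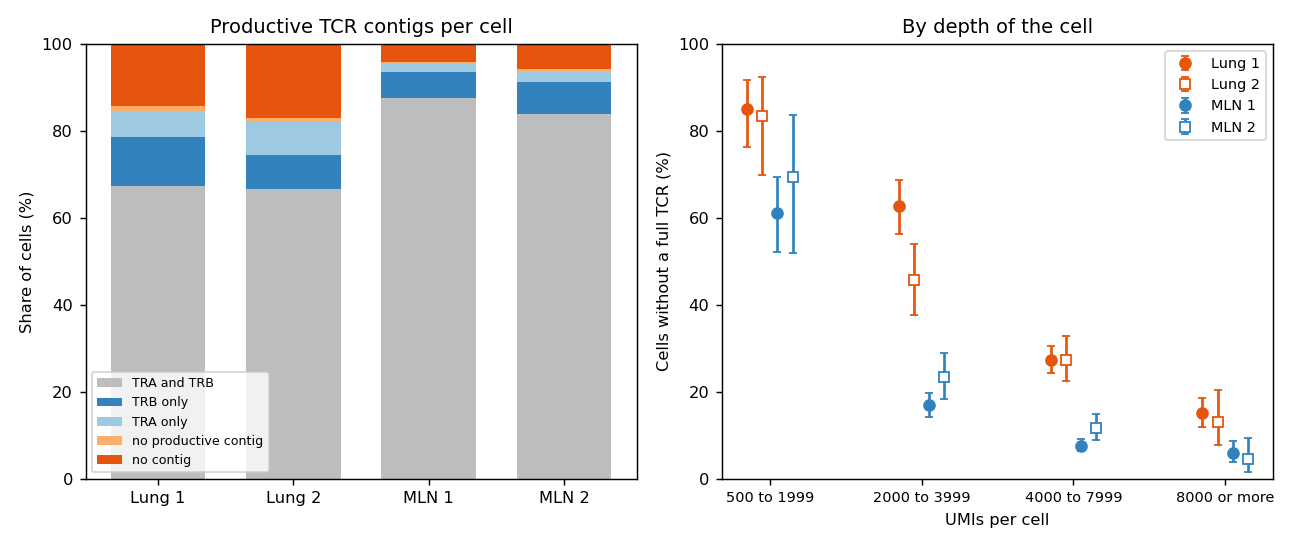
Left, stacked bars of the share of cells (%) by productive TCR contigs in each library. Right, share of cells without a full TCR (%) by UMIs per cell, with points for libraries and bars for 95% exact intervals. The grey full TCR part is 67.4 and 66.7% in the lungs, and on the right the lungs fall from 85.1 and 83.3% in the shallowest to 15.1 and 13.1% in the deepest cells.

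CD3 transcripts divided these cells. Cd3e, Cd3d and Cd3g encode the CD3 ε, δ and γ chains. In lung 1, 76 of the 523 cells (14.5%, interval 11.6 to 17.8%) had no UMI of any of them, and in lung 2, 35 of the 208 cells (16.8%, 12.01 to 22.6%). Among full TCR cells this held for 1 of 1082 in lung 1 (0.0924%) and for 0 of 416 in lung 2, a count of 0 that allows a share of up to 0.721%. The CD3-negative cells were almost all cells without any TCR contig, namely 110 of 111, and the remaining cell had a TRB contig only. They accounted for 75 of the 228 cells without a contig in lung 1 (32.9%) and for 35 of 106 in lung 2 (33.02%). All cells with a TRA contig only, 96 and 48, had a CD3 UMI. The 3 genes lie next to each other on mouse chromosome 9 (Cd3e at chr9:44998740-45009627 on the minus strand, build GRCm38).

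The CD3-negative cells were shallower than full TCR cells but not than the other cells without a full TCR in lung 2. Their median was 3887 UMIs per cell in lung 1 and 4133 in lung 2, against 6913 and 5765.5 in CD3-positive full TCR cells and 4561 and 3643 in CD3-positive cells without a full TCR. After each cell had been thinned to 2000 UMIs, which kept 443 and 168 of the cells without a full TCR, 1068 of 1082 full TCR cells in lung 1 and 408 of 416 in lung 2, 14.2% of the cells without a full TCR in lung 1 and 17.9% in lung 2 had no CD3 UMI, against 0.655 and 0.490% of full TCR cells. The median share of mitochondrial UMIs was 1.09 and 1.07% in CD3-negative cells and 2.86 and 2.63% in full TCR cells.

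Clustering of all 2229 lung cells gave 10 clusters, and the cells without a full TCR were found in each of them. Cluster 8 held 85 cells, 54 from lung 1 and 31 from lung 2, of which 84 lacked a full TCR and had no contig at all, and 81 were CD3-negative. Its genes of largest fold over the other cells were Ccl4, Ccl3, Ifitm1, Ptgs2, Gata2, Ccl6, Cyp4f18, Acod1, Ccl9 and Emilin2, all 10 genes of the basophil list were detected, and Gata2, the transcription factor of the basophil and mast cell lineage, was found in 94.1% of its cells. It is therefore called basophil-like. Cluster 9 held 20 cells, 18 from lung 1 and 2 from lung 2, none with a contig and 19 of them CD3-negative. Its first genes were Chil3 and Lyz2, which encode the chitinase-like protein Ym1 and lysozyme, followed by Cd36, Mmp12, Inhba, Lrp1, Tgfbi, Ccl24, Mpeg1 and F10, and it is called macrophage-like. These genes defined the clusters and were not tested between them.

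The rest lay among T cells. Cluster 4 held 163 cells without a full TCR of its 242 cells (67.4%), that is 22.3% of all 731. The mice differed, with 75.6% of the cluster lacking a full TCR in lung 1 and 43.5% in lung 2, and the cluster held 26.0% of the cells without a full TCR of lung 1 and 12.98% of those of lung 2. Its cells had a median of 2550 UMIs against 5840 over all lung cells, its first gene was AY036118, a long non-coding RNA gene at chr17:39847113-39848035, and the mitochondrial gene mt-Nd6 was also among its first 10, and it was left unnamed. In the other 7 clusters the share without a full TCR lay between 8.33% (cluster 7) and 36.9% (cluster 2) in lung 1 and between 13.8% (cluster 6) and 34.7% (cluster 5) in lung 2. Of the 111 CD3-negative cells, 81 fell in the basophil-like cluster, 19 in the macrophage-like cluster and 11 elsewhere. The last 11 had medians of 1243 UMIs in lung 1 and 1376 in lung 2. Among them 6 of 8 and 2 of 3 had at least 3 of the 18 listed T-cell genes, and 1 cell of lung 2 had at least 3 B-cell genes. At least 3 dendritic genes were found in 0 of 8 and 1 of 3. For the list of group 2 innate lymphoid cells, which shares Gata3 and Il1rl1 with the Th2 effector list, this held for 2 of 8 and 0 of 3.

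**Figure D2:**
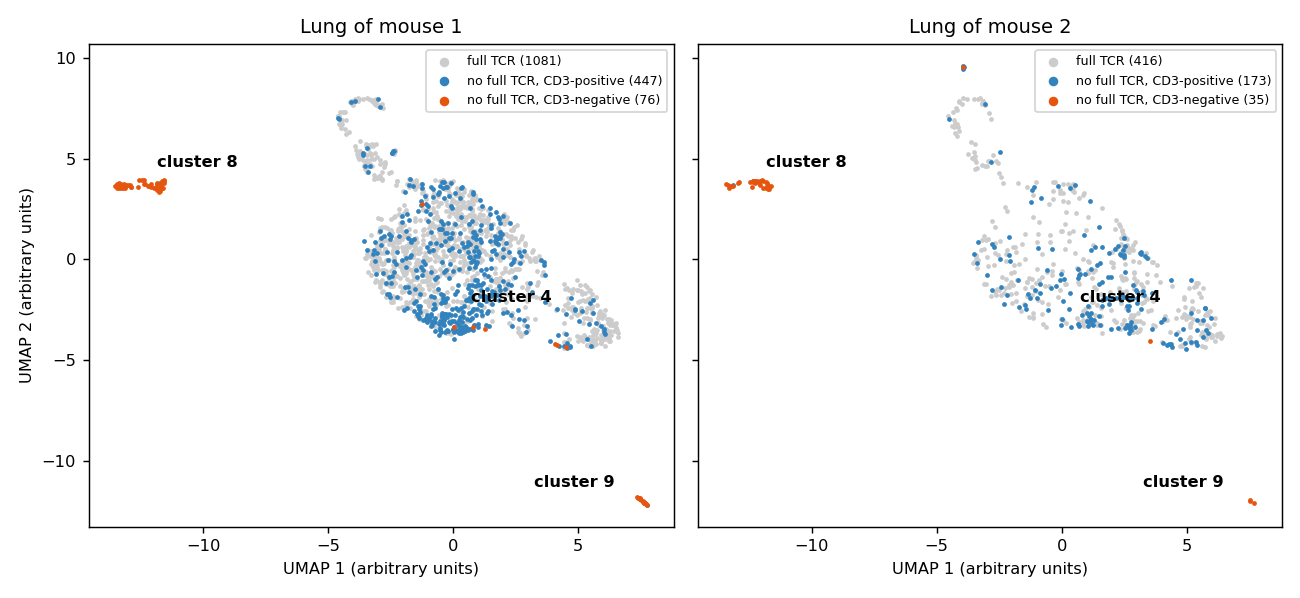
UMAP of the lung cells of each mouse (both axes in arbitrary units), 1 point per cell, coloured by TCR and CD3 status with cell numbers in the legend. The 1 full TCR cell without a CD3 UMI is not drawn. The CD3-negative cells (76 and 35) lie mainly in clusters 8 and 9, apart from the full TCR cells, and the CD3-positive cells without a full TCR (447 and 173) lie among the full TCR cells with many in cluster 4.

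To see what set all 731 cells apart, UMIs were summed per mouse and group and compared with those of full TCR cells in edgeR's quasi-likelihood test with Benjamini-Hochberg adjustment, which is the source of every adjusted p below. In cells without a full TCR all 9 tested basophil genes, 4 of 9 tested myeloid factors (Gata2, Spi1, Cebpa and Cebpb), 3 of 5 tested macrophage genes (Lyz2, Chil3 and Adgre1) and 8 of 20 tested cytokine and chemokine genes passed as higher, and 6 of 8 proliferation genes passed as lower. Among the chemokines these were Ccl3, Ccl4, Ccl6 and Ccl9, while Ccl1, Ccl5 and Cxcl2 did not pass. Gata2 is on both the basophil and the myeloid factor list. Many of these genes, such as Gata2, Mcpt8, Fcer1a, Lyz2 and Chil3, were at or near 0 in full TCR cells and entered the test only through the cells without a full TCR, so that their counts describe these cells and do not test the lists. Of the 11 dissociation stress genes 4 passed as higher as well (Dnajb1, Egr1, Ier2 and Jun), with the replicate block 9 were higher and Hsp90aa1 lower, and the part of tissue digestion in these differences was not tested. Of 9503 genes tested, 271 (2.85%) passed an adjusted p of 0.05, 239 of them higher (2.51% of tested genes) and 32 lower (0.337%). With the mouse as a replicate block, 881 genes passed, 599 higher (6.30%) and 282 lower (2.97%), and these held all of the 271.

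Ccl3 and Ccl4 encode the chemokines MIP-1α and MIP-1β. Ccl4 reached 4439 counts per 1000000 UMIs (CPM) in lung 1 and 6455 CPM in lung 2 among cells without a full TCR, against 34.8 and 10.0 CPM in full TCR cells. Ccl3 stood at 2655 and 4007 CPM against 18.7 and 16.8 CPM. The groups did not overlap for either gene, and the log2 fold changes were 7.82 (SE 0.54, adjusted p = 9.073e-05) for Ccl4 and 7.56 (SE 0.27, adjusted p = 7.339e-06) for Ccl3. The other genes with the largest rise were Lyz2, Chil3, Gata2, Ptgs2, Csf2rb2, Ccl6, Ncf1 and C5ar1. Of the 10 basophil genes, 9 had enough UMIs to be tested and rose, and Prss34 was not tested. Of the 8 proliferation genes, 6 fell, with a median of -1.32. Mki67, the gene of the proliferation antigen Ki-67, stood at 34.2 and 44.6 CPM against 87.2 and 122.9 CPM in full TCR cells, and its log2 fold change was -1.38 (SE 0.20, adjusted p = 0.005995). None of the 18 T-cell genes passed, although 8 of them were lower with the replicate block, and of the 14 Th2 effector genes 0 passed and 7 were higher with the block. This number includes 1 cell of lung 2 with 616 Il5 UMIs. Without it, a setting chosen after the data were seen, 556 of 9498 genes were higher (5.85%) and 252 lower (2.65%) with the block, among them as higher 5 Th2 effector genes (Il4, Il13, Il2ra, Il1rl1 and Plac8), while Il5 and Adam8 did not pass. In summed data of this kind fewer cells of a type and less RNA per cell cannot be told apart, so the CD3 split was used next.

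CD3-negative cells without a full TCR were compared with CD3-positive full TCR cells of the same mice. The T-cell genes were largely gone, which the split by Cd3 UMIs of these same cells partly sets. Genes of the basophil, its IgE receptor and its granules stood in their place. Of 9119 genes tested, 2263 passed (24.8%), 1181 of them higher (13.0%) and 1082 lower (11.9%), and the median log2 fold change over all genes was -0.20, against which the changes below should be read. Many of the genes named here were near 0 in full TCR cells and passed the filter on low counts through the CD3-negative group, so that their number is a description of these cells and not a test of the list.

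Of the 3 marker genes given for these cells, Cd3e had been used for the split, so that only Mcpt8 and Cd200r3 could be compared. Mcpt8 encodes the basophil protease mMCP-8 (chr14:56082166-56085273, minus strand). It was at 634.2 CPM in lung 1 and 714.9 CPM in lung 2, against 5.17 and 0.357 CPM in full TCR cells. The full TCR values are near 0, so its log2 fold change of 7.76 is a description and not a test. Cd200r3, which encodes an activating receptor of basophils and mast cells (chr16:44943678-44981380, plus strand), was at 627.3 and 800.7 CPM against 24.0 and 10.4 CPM. Of the CD3-negative cells, 53.9 and 74.3% held a Cd200r3 UMI. In full TCR cells, which were deeper, the shares were 11.4 and 5.77%, and the source of these UMIs was not tested. At least 3 of the 10 basophil genes were found in 51 of 76 CD3-negative cells of lung 1 (67.1%, interval 55.4 to 77.5%) and in 30 of 35 of lung 2 (85.7%, 69.7 to 95.2%), against 0.463 and 0.481% of full TCR cells. The sum of the list was 11603 and 11482 CPM in CD3-negative cells and 137.0 and 120.1 CPM in full TCR cells.

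All 10 genes of the list rose. Gata2 was at 880.3 and 929.4 CPM against 0.235 and 0.715 CPM, where the full TCR values rest on 2 UMIs each. Hdc, which encodes the histamine-forming histidine decarboxylase, was the most abundant, at 6384 and 4983 CPM against 88.6 and 97.2 CPM. Cyp11a1, the enzyme that opens steroid synthesis, was at 1875 and 1973 CPM against 14.2 and 6.08 CPM. Prss34, which encodes the basophil protease mMCP-11, was the least even. It was at 20.8 and 121.5 CPM, but in lung 2 these UMIs came from 1 of the 35 cells.

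The promoters of 2 of these genes are shown because they hold the most matches to the letters AGATAA or TGATAA, which GATA factors can bind. The sequences are 250 bases before to 50 after the start of the gene in RefSeq (GRCm38.p6), written 5′ to 3′ on the strand of the gene, with matches on either strand in capitals. Ms4a2 (chr19:11623670-11623969, minus strand) encodes the β chain of FcεRI.
Ms4a2: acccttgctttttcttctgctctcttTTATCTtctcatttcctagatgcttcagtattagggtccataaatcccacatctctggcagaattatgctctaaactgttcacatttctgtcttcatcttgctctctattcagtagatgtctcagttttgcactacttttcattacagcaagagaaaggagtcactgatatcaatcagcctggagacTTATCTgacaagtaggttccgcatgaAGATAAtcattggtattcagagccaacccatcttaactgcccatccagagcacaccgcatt
Cd200r3: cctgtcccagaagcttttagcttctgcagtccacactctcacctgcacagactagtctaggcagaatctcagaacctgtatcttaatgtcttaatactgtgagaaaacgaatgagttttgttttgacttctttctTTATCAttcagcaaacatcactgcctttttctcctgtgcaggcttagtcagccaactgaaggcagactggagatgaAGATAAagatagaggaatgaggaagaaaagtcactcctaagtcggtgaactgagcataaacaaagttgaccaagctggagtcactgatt
The Cd200r3 sequence lies at chr16:44943428-44943727 on the plus strand. At least 1 match was found for 6 of the 10 basophil genes and for 21.0% of the 27025 genes with a promoter in the table. Mcpt8, Hdc, Gata2 and Cyp11a1 had none in this window. A match is a description of the letters and not a site of binding.

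The IgE receptor followed. Fcer1a, Ms4a2 and Fcer1g encode its α, β and γ chains. Fcer1a was at 460.9 and 686.3 CPM in CD3-negative cells and at 0.588 and 1.79 CPM in full TCR cells. Fcer1g was at 1937 and 1766 CPM against 2.35 and 4.29 CPM, and 81.6 and 91.4% of the CD3-negative cells held a UMI of it. Both groups were apart in each mouse. Of the 10 genes of the receptor and its signalling 9 rose, among them the kinase genes Syk, Lyn and Btk and the adaptors Lat2 and Gab2. Inpp5d, which encodes the inhibitory phosphatase SHIP-1, was at 76.3 and 121.5 CPM against 122.6 and 134.0 CPM (adjusted p = 0.7199). The list, which shares Fcer1a and Ms4a2 with the basophil list, had a median log2 fold change of 8.43.

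Granule and lipid mediators made up the next group. Cpa3, Hdc, Mcpt8, Prss34 and Slc18a2 of the granule list are also on the basophil list. All 7 tested genes of the granule list rose, including Cpa3, which encodes carboxypeptidase A3, and Srgn, which encodes the granule proteoglycan serglycin and was already high in T cells, at 9299 and 7242 CPM against 2339 and 1664 CPM. Gzmb, which encodes granzyme B, was at 495.6 and 414.7 CPM against 61.0 and 18.2 CPM, but only 15.8 and 22.9% of the CD3-negative cells had a UMI of it. Alox5 and Alox5ap, which encode 5-lipoxygenase and its activating protein, and Ptgs2, which encodes cyclooxygenase-2, rose. Alox5ap was at 2339 and 2924 CPM against 22.0 and 25.7 CPM. Hpgds, the prostaglandin D synthase of Th2 cells, had no UMI in CD3-negative cells and was at 14.2 and 16.1 CPM in full TCR cells (adjusted p = 0.033). Ltc4s, which encodes leukotriene C4 synthase, had 3.47 and 0 CPM and was not tested.

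Among receptors, 7 of 13 tested genes rose and 2 fell, and with the replicate block 8 rose and 3 fell. Csf2rb, the chain shared by the receptors of IL-3, IL-5 and GM-CSF, was at 1081 and 1294 CPM against 1.29 and 2.50 CPM. The full TCR values are near 0, so its log2 fold change of 9.73 is a description and not a test. Il3ra, the α chain for IL-3, was at 149.0 and 150.1 CPM against 35.7 and 29.3 CPM. Il18r1 and Il18rap, the 2 chains of the IL-18 receptor, also rose. Il1rl1, which encodes the IL-33 receptor ST2, did not pass (149.0 and 157.3 CPM against 454.2 and 257.7 CPM, adjusted p = 0.1022), although it was lower with the replicate block (adjusted p = 0.0005587), and the α chain gene Il5ra had no UMI in any lung group. Il2rb and Il2rg fell.

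Cytokine genes changed in both directions. Il4, whose locus drives the reporter (chr11:53602982-53618669, minus strand), was at 1293 and 1137 CPM in CD3-negative cells, against 446.2 and 386.7 CPM in full TCR cells. The 2 groups did not overlap, and the log2 fold change was 1.86 (SE 0.21, adjusted p = 4.79e-05). The UMIs were uneven between cells. In lung 1 the 5 cells with most Il4 held 223 of 373 UMIs, and in lung 2 they held 109 of 159. At 2000 UMIs per cell, 45.8% of the CD3-negative cells of lung 1 and 65.5% of those of lung 2 had an Il4 UMI, against 36.3 and 39.7% of full TCR cells. Il13 was at 301.5 and 178.7 CPM against 321.0 and 127.2 CPM (adjusted p = 0.5482). Il5 had no UMI in the CD3-negative cells of either lung, against 89.2 and 30.7 CPM in full TCR cells. A count of 0 allows up to 10.4 CPM in lung 1 and 21.4 CPM in lung 2, and Il5 did not pass the test (adjusted p = 0.1985).

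The chemokine genes Ccl3, Ccl4, Ccl6 and Ccl9 were among those that rose, while Ccl1 fell and Ccl5, Csf2 and Ifng did not pass without the replicate block. Ccl4 was at 38525 and 39657 CPM, Ccl3 at 23033 and 24586 CPM, Ccl6 at 10605 and 14484 CPM and Ccl9 at 2655 and 2781 CPM, so that a few percent of all their mRNA came from 1 chemokine gene. These 4 genes are neighbours on chromosome 11 between 83572919 and 83664683. In full TCR cells Ccl4 UMIs were found in 0.833 and 0.721% of cells. Il6 was at 1033 and 700.6 CPM against 31.9 and 19.3 CPM, Osm, which encodes oncostatin M, at 4571 and 5162 CPM against 18.7 and 27.5 CPM, and Csf1, the macrophage growth factor gene, at 1899 and 2352 CPM against 110.7 and 157.2 CPM. In all, 10 of 20 tested genes of the list rose and 4 fell, and with the replicate block 10 rose and 7 fell. Areg, which encodes the repair factor amphiregulin and is abundant in lung Th2 cells, was at 104.0 and 0 CPM against 1445 and 446.4 CPM (adjusted p = 0.01065). Tnf passed (adjusted p = 0.001275) at 294.6 CPM in lung 1 but was at 14.3 CPM in lung 2, below the 19.3 CPM of full TCR cells there.

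T-cell genes were low in the same cells. The split had read Cd3 UMIs of these cells, so the falls of genes that go with Cd3 are partly set by it. They describe the cells and do not test the lists. Of 15 tested genes of the T-cell list 14 fell, with a median log2 fold change of -4.56, and the 3 Cd3 genes of the list were left out because the split had used them. Cd4, the coreceptor gene by whose product the cells had been sorted, was at 17.3 and 7.15 CPM against 283.3 and 256.6 CPM. Cd6 had no UMI in either lung, against 266.6 and 249.8 CPM, and was at least 25.6-fold lower in lung 1 and at least 11.6-fold lower in lung 2 when set against 3 UMIs per group. The kinase genes Lck and Zap70 fell. Without the 3 Cd3 genes, the sum of the list was 887.2 and 936.6 CPM in CD3-negative cells and 6708 and 6926 CPM in full TCR cells. Of 20 genes of TCR signalling, a list that shares genes such as Lck and Zap70 with the T-cell list, 16 fell. Of 13 tested T-cell transcription factors 9 fell (11 with the replicate block), among them Gata3, the Th2 master regulator, at 24.3 and 21.5 CPM against 831.7 and 774.4 CPM. Of 9 tested myeloid factors 7 rose, with Spi1 and Cebpa next to Gata2, which is also on the basophil list. Of the 14 Th2 effector genes Il4 and Adam8 rose and 8 fell (9 with the replicate block), and all 8 proliferation genes fell.

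Other cell types were looked for in the same way. At least 3 macrophage or monocyte genes were found in 15 CD3-negative cells of lung 1 and 2 of lung 2, all in cluster 9. Lyz2 was at 1026 and 321.7 CPM and Chil3 at 2007 and 264.5 CPM, so that the macrophage-like cells weighed more in lung 1. The MHC class II genes Cd74, H2-Aa and H2-Ab1 and the integrin gene Itgax, the 4 tested genes of the dendritic list, rose. Without cluster 9, a setting chosen after the data were seen, 2302 genes passed. Pecam1, which platelets and leukocytes share with endothelium, was the 1 of 2 tested lung structural genes that rose. No cell without a full TCR had 3 or more mast cell, neutrophil, eosinophil, erythrocyte and platelet or lung structural genes, and the mast cell proteases Cma1, Tpsb2, Tpsab1, Mcpt1 and Mcpt2 had no UMI in any group of lung cells. Alox15 and Siglecf, the 2 tested genes of the 9 on the eosinophil list, did rise, Alox15 at 31.2 and 50.04 CPM against 0.118 and 0 CPM and Siglecf at 27.7 and 57.2 CPM against 1.41 and 1.43 CPM, while Epx, Prg2, Ear1, Ear6 and Il5ra had no UMI in CD3-negative cells. Ccr3, also on the eosinophil list, had too few UMIs to be tested. Its level was 9.07-fold above full TCR cells in lung 1, a ratio that rests on few UMIs in CD3-negative cells. Mcpt4 had 6.93 CPM in lung 1. Of the dissociation stress genes 7 of 11 rose and Hspa1b fell, and with the replicate block 7 rose and 2 fell. Jun was at 4623 and 6141 CPM against 130.3 and 125.1 CPM and Egr1 at 6238 and 8350 CPM against 112.9 and 169.8 CPM. These are also activation genes of basophils, and the part of tissue digestion in their level was not tested.

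**Figure D3:**
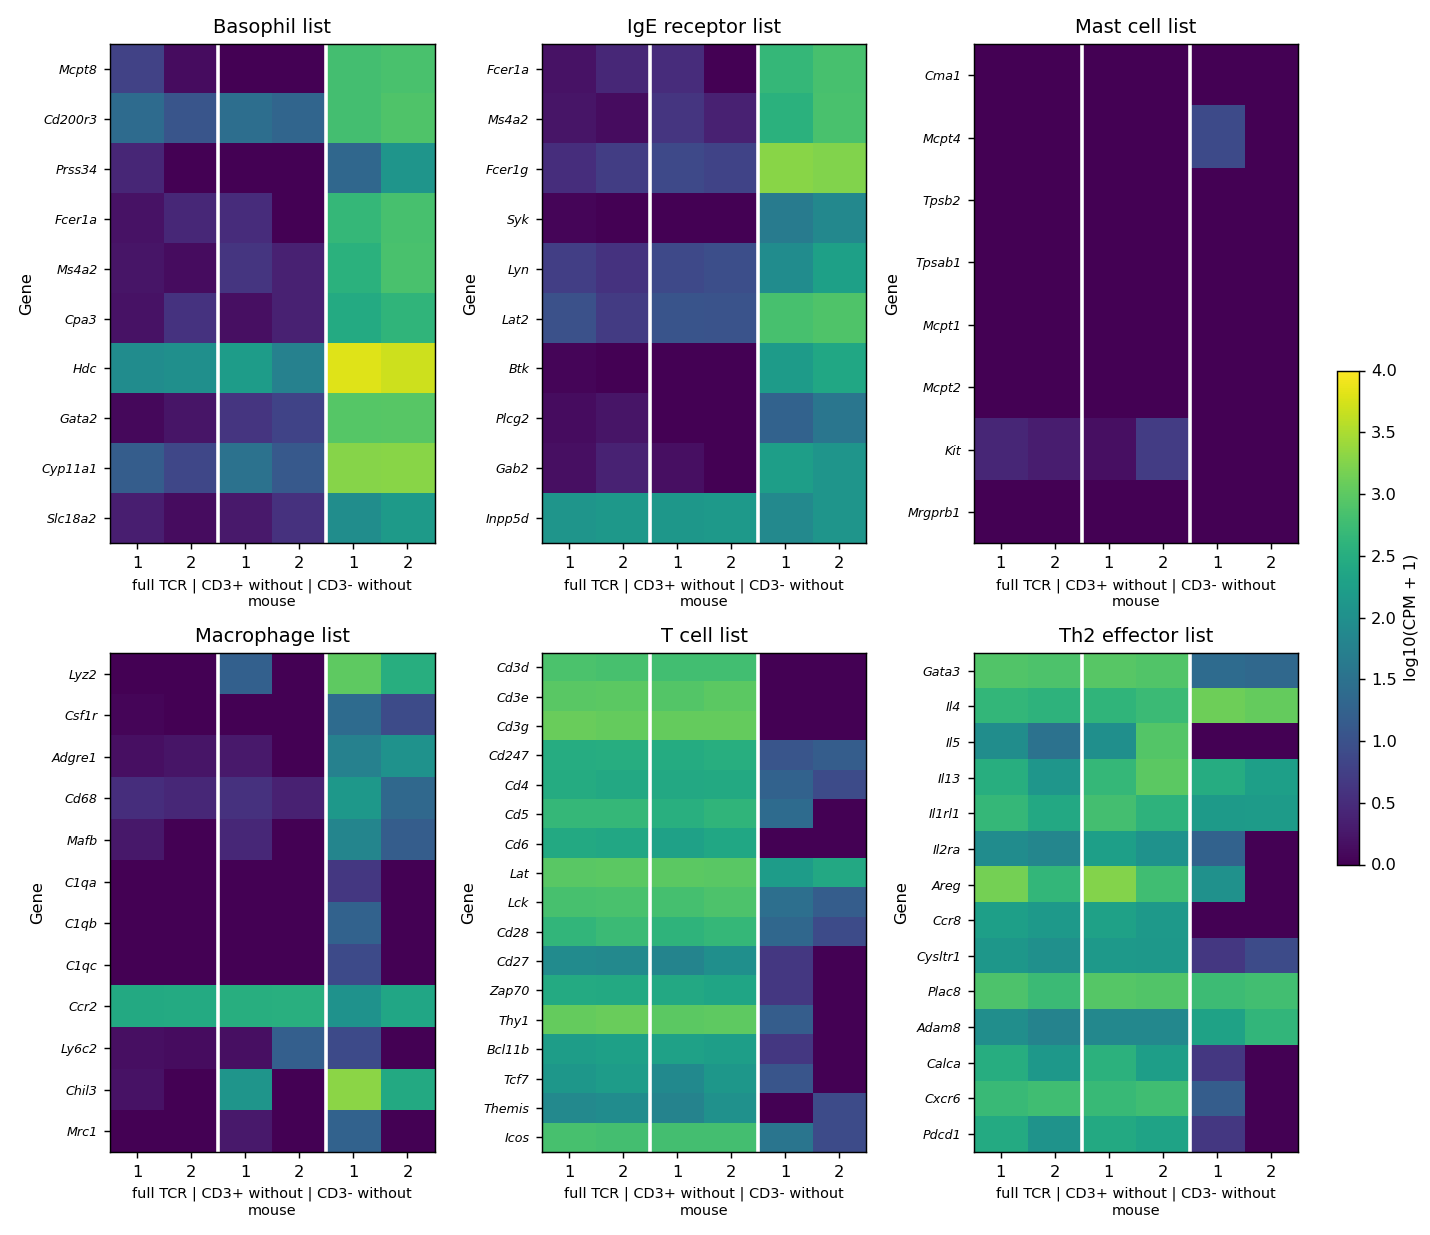
Heat maps of log10(CPM + 1) for genes of 6 lists (rows) in 3 groups of lung cells and 2 mice (columns). Most basophil and IgE receptor genes are high in the 2 columns of CD3-negative cells, T-cell genes are high in the other 4 columns, and the mast cell list is at or near 0 throughout.

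CD3-positive cells without a full TCR, 447 and 173 cells, resembled full TCR cells in the genes of the T-cell lists. Against CD3-positive full TCR cells, 0 of 9119 genes passed in edgeR (0%), with 313 at an unadjusted p below 0.05, and DESeq2 called 5 genes, Ccl3, Csf2rb, Csf2rb2, Plek and Pclaf. The median log2 fold change was -0.05 over the T-cell list, -0.01 over the TCR signalling list and 0.01 over all genes. Cd4 was at 259.5 and 269.9 CPM against 283.3 and 256.6 CPM, Gata3 at 913.2 and 820.5 CPM against 831.7 and 774.4 CPM, and Il4 at 411.6 and 523.4 CPM against 446.2 and 386.7 CPM, and the groups overlapped for each.

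With the mouse as a replicate block 61 genes passed, 26 higher (0.285%) and 35 lower (0.384%). Of the 8 proliferation genes 7 fell. Mki67 was at 38.6 and 50.4 CPM against 87.2 and 122.9 CPM (blocked log2 fold change -1.19, SE 0.16, adjusted p = 6.393e-05), and the groups did not overlap. Top2a, which encodes topoisomerase II α, was at 64.8 and 45.0 CPM against 99.8 and 122.6 CPM. Il2ra, the α chain of the IL-2 receptor, was at 179.2 and 109.0 CPM against 86.8 and 66.5 CPM, and rose by 0.95 on the log2 scale (SE 0.15, adjusted p = 0.0003148). The chemokine genes Ccl3, Ccl4 and Ccl6 rose with the block, as did 1 of 10 basophil genes, Gata2, and 2 of 7 tested macrophage genes, Lyz2 and Chil3. Mcpt8 and Prss34 had no UMI in these cells, and the basophil list summed to 227.1 CPM in lung 1 and 98.1 CPM in lung 2, against 137.0 and 120.1 CPM in full TCR cells. Ccl3 stood at 47.5 and 83.1 CPM against 18.7 and 16.8 CPM, and Lyz2 and Chil3 had UMIs in lung 1 only. This CD3-positive group includes a few cells of clusters 8 and 9, where 81 of 84 and 19 of 20 cells without a full TCR were CD3-negative. Over all lung cells outside cluster 8, Ccl3 was at 3.97 CPM and Gata2 at 0.209 CPM. Outside cluster 9, Chil3 was at 0.341 CPM and Lyz2 at 0 CPM, so all Lyz2 UMIs of this group lay in cluster 9. The part of the few cells of clusters 8 and 9 in the rises of Ccl3, Gata2 and Chil3 was not tested. Of the 14 Th2 effector genes 3 rose, Il2ra, Il13 and Il5, and of 6 migration genes 0 passed. In clusters with mainly full TCR cells, a setting chosen after the data were seen, 165 genes passed with the block. Of these 75 were higher (0.818%) and 90 lower (0.982%). Ccl3, Gata2, Lyz2 and Chil3 did not pass the filter on low counts there and were not tested. Of the 3 basophil genes tested there 1 rose, Cyp11a1 (log2 fold change 1.04, adjusted p = 0.02859). Full TCR cells also held Cyp11a1 UMIs. Of 11 dissociation stress genes 3, Atf3, Jun and Hspa1a, rose as well. There 7 of 14 Th2 effector genes rose, namely Il13, Il5, Il2ra, Il1rl1, Areg, Plac8 and Calca, 7 of 8 proliferation genes fell, and 3 of 6 migration genes, S1pr1, Lef1 and Tcf7, fell.

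One cell carried much of the cytokine signal. In lung 2, CD3-positive cells without a full TCR had 622 Il5 UMIs, and 616 of them lay in 1 cell with a TRA contig only, in cluster 6. Il5 made up 8.01% of its 7692 UMIs. The same cell held 639 of the 720 Il13 UMIs, 121 of the 384 Il4 UMIs and 70 of the 122 Csf2 UMIs of its group. With it the group stood at 847.8 CPM for Il5 and 981.3 CPM for Il13, and without it at 8.26 and 111.6 CPM, below the 30.7 and 127.2 CPM of full TCR cells. In lung 1 Il5 was at 95.8 against 89.2 CPM. The rise of Il13 and Il5 given above includes it, and the fit in clusters with mainly full TCR cells was not repeated without it. In the blocked test over all clusters without this cell neither Il5 nor Il13 passed, 101 of 9107 genes passed, 44 higher (0.483%) and 57 lower (0.626%), and 2 of 14 Th2 effector genes, Il2ra and Il1rl1, rose and 1 of 6 migration genes, Tcf7, fell.

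**Figure D4:**
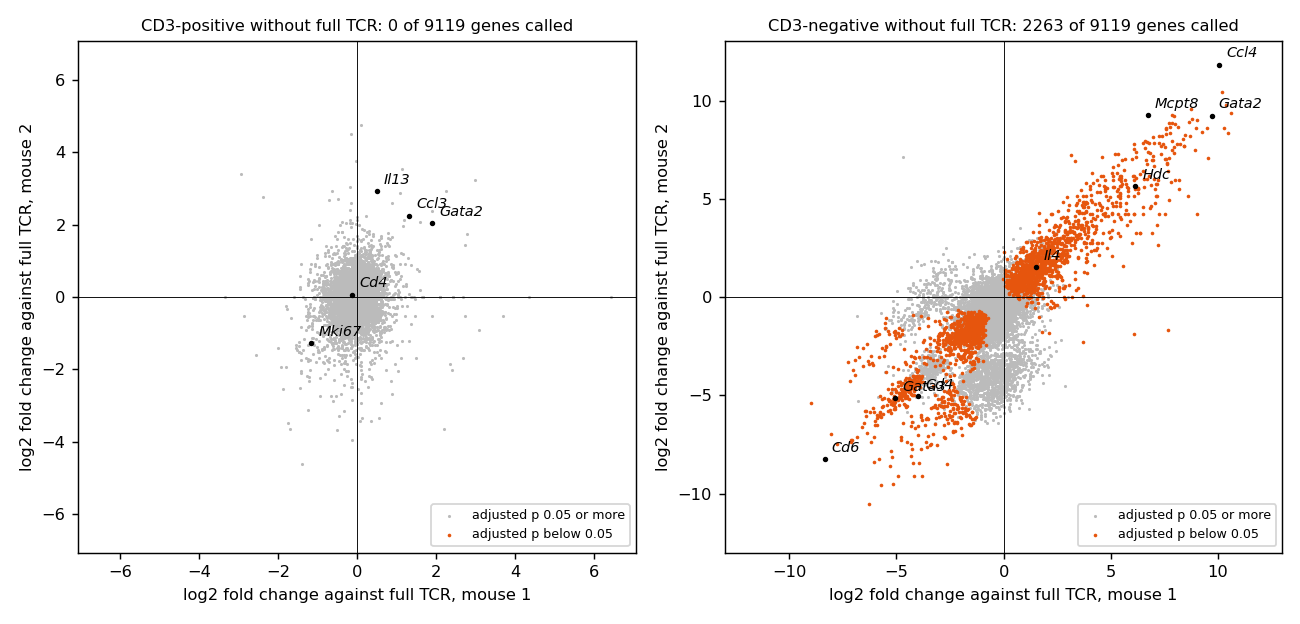
Log2 fold change against full TCR cells in mouse 1 (x axis) and mouse 2 (y axis), 1 point per gene, with genes at an adjusted p below 0.05 in orange and some named genes in black. The 2 panels have different axis ranges. On the left, for CD3-positive cells without a full TCR, 0 of 9119 genes are called and most points lie near the origin. On the right, for CD3-negative cells, 2263 are called, with Ccl4, Gata2, Mcpt8 and Hdc high and Cd6, Gata3 and Cd4 low in both mice.

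mRNA of the chain missing from the V(D)J library was found in many of the CD3-positive cells with a single chain. UMIs of Trac, the α constant gene, were found in 47.8% of TRB only cells of lung 1 and 45.8% of lung 2, against 71.0 and 69.7% of the deeper full TCR cells. UMIs of the TRB constant region were found in 72.9 and 85.4% of TRA only cells, against 85.2 and 89.2% of full TCR cells, and in 85.0 and 95.8% of TRB only cells, which have this chain. With each cell thinned to 2000 UMIs, Trac UMIs were found in 25.0% of TRB only against 28.9% of full TCR cells in lung 1 and in 38.6 against 33.6% in lung 2. For the TRB constant region in TRA only cells the thinned shares were 43.75 against 55.3% in lung 1 and 72.9 against 67.2% in lung 2, so that at equal depth the single-chain cells lay below full TCR cells in lung 1 and above them in lung 2 for both chains. CD3-positive cells without a contig had them in 43.8 and 38.0%, at medians of 2423 and 2312 UMIs per cell. CD3-negative cells without a contig had them in 4.00 and 2.86%, at deeper medians of 3919 and 4133 UMIs. No background share was measured for these UMIs. Trac gave 197.6 and 206.6 CPM in full TCR cells, 145.7 and 171.9 CPM in TRB only cells, 130.8 and 239.1 CPM in CD3-positive cells without a contig, and 6.96 and 0 CPM in CD3-negative cells without one. The invariant TRAV11 with TRAJ18 chain of NKT cells was found in 0 of 96 TRA only cells of lung 1 and 1 of 48 of lung 2, against 3 of 1082 and 8 of 416 full TCR cells.

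The chain of cells with a single chain was looked for in full TCR cells. A chain counted as found when a full TCR cell had the same V gene, J gene and CDR3 nucleotides. The CDR3 is the loop over the V(D)J junction and the most variable part of the chain. The TRB chain of 76 of 181 TRB only cells of lung 1 (41.99%, interval 34.7 to 49.5%) and of 14 of 48 in lung 2 (29.2%, 17.0 to 44.1%) was found in a full TCR cell of the same lung. In the MLN of the same mouse it was found for 28 (15.5%) and 6 (12.5%), in the lung of the other mouse for 0 and 1, and in the MLN of the other mouse for 2 and 0. TRA chains of TRA only cells were found in the same lung for 37 of 96 (38.5%) and 7 of 48 (14.6%), and in the lung of the other mouse for 5 and 1. Both chains and both mice gave more matches within the lung than in the MLN of that mouse, with intervals that did not overlap in lung 1 and overlapped in lung 2 for both chains, although the MLNs held more full TCR cells to search (2462 and 754, against 1082 and 416).

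Some of the chains found in the same lung are shown with the partner chain of the full TCR cells, because a chain could have 1 partner or several. CDR3 sequences are given 5′ to 3′ with the first and last codon in capitals. In lung 1, 4 TRB only cells, all in cluster 6, had TRBV13-1 with TRBJ2-4, and all 5 full TCR cells with this chain had 1 and the same α chain, TRAV12-3 with TRAJ32.
TRBV13-1 and TRBJ2-4: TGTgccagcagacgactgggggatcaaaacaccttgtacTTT
TRAV12-3 and TRAJ32: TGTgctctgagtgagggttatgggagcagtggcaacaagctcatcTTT
In lung 2, 2 TRB only cells, both in cluster 4, had TRBV15 with TRBJ1-1, and the 3 full TCR cells with that chain shared the α chain TRAV14-2 with TRAJ45.
TRBV15 and TRBJ1-1: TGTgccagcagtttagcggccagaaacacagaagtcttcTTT
TRAV14-2 and TRAJ45: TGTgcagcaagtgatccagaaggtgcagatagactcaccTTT
In lung 1, 3 TRA only cells had TRAV14N-3 with TRAJ33, and the 2 full TCR cells with this chain carried the same TRBV2 and TRBJ2-5 chain.
TRAV14N-3 and TRAJ33: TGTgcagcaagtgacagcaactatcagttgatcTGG
TRBV2 and TRBJ2-5: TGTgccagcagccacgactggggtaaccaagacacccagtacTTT
Not every chain had 1 partner. TRBV1 with TRBJ1-1 in 2 TRB only cells of lung 1 occurred in 6 full TCR cells of that lung with 5 different α chains, in 9 full TCR cells of the MLN of that mouse and in 1 full TCR cell of the other mouse. TRAV4N-4 with TRAJ12 in 3 TRA only cells of lung 1 occurred in 8 full TCR cells of that lung with 6 different β chains and in 1 full TCR cell of the other mouse.
TRBV1 and TRBJ1-1: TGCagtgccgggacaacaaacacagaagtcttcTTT
TRAV4N-4 and TRAJ12: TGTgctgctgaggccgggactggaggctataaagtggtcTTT

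**Figure D5:**
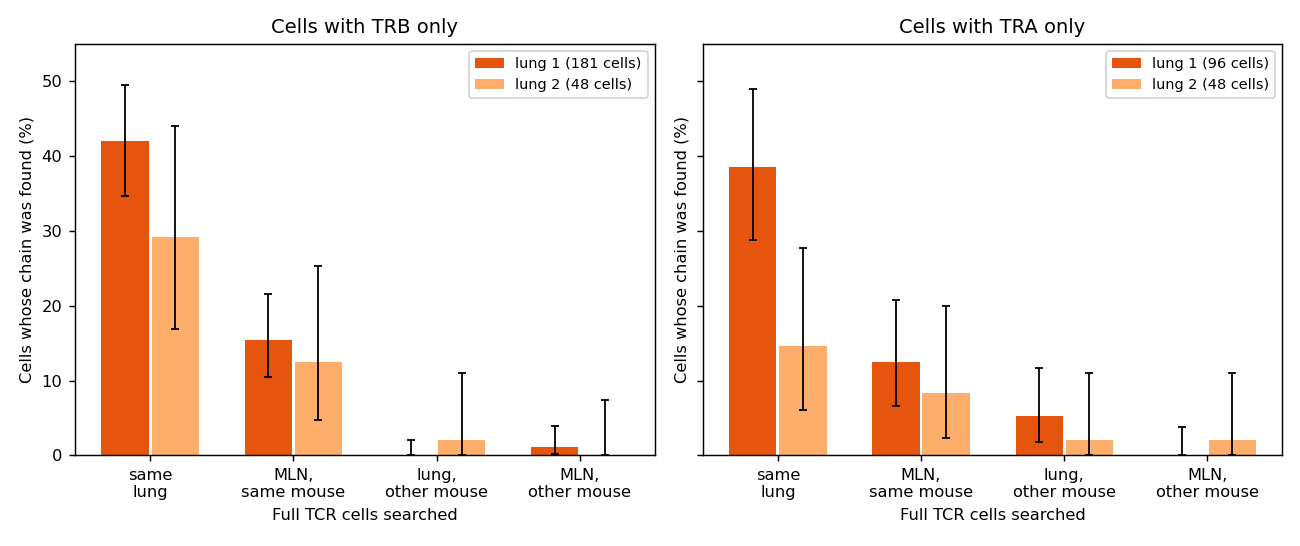
Share (%) of TRB only cells (left) and TRA only cells (right) of each lung whose chain was found in full TCR cells of 4 places, with 95% exact intervals as bars. The share is highest in the same lung (41.99 and 29.2% for TRB, 38.5 and 14.6% for TRA), lower in the MLN of the same mouse, and between 0 and 5.21% in the lung and MLN of the other mouse, where the TRA interval of lung 1 overlaps that of the MLN of the same mouse.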

How the data were processed

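Per the labels, CD4+ IL-4eGFP+ cells were sorted from lung and MLN, and 2 sequencing runs per library were combined. The authors made the deposited counts (whole UMI counts per gene and barcode, not normalized) and the filtered V(D)J contigs with Cell Ranger (2.1.1 and 3.0.1 in the submitters' processing notes, builds GRCm38 and mm10). Here counts were summed per mouse and group (UMI totals from 139875 to 8505948 for the tested lung groups of the CD3 split) and fitted in edgeR 4.0.16, with mouse as replicate and filterByExpr on low counts. DESeq2 1.42.0 was an alternative. CPM are counts per 1000000 UMIs of the group. Cells were clustered in Seurat 5.3.0 (2000 variable genes, 15 components, resolution 0.8), doublets were left in, and Scrublet with multi-chain cells gave an alternative. Named genes were the 10 with the largest fold each way at a mean of at least 50 CPM and the same direction in both mice, every listed gene, and each cluster's first 10. The members and lists were chosen with earlier results of these data known. Groups with the same number came from the same mouse and library, so the numbers pair them. The deviations of same-numbered groups correlated at 0.292 (all cells), 0.318 (CD3-positive) and 0.0687 (CD3-negative). On simulated counts with 200 genes changed by a log2 of 2, edgeR recovered 200 of 200 among 9503 genes, 200 among 9119 (CD3-positive) and 191 among 9119 (CD3-negative), with 10, 6 and 9 false calls. The changed genes were drawn from those above 50 CPM, with a common spread for all genes and no shared mouse effect. Smaller changes were not simulated, so the recovery says nothing about them. Gene positions are from GENCODE vM21. Beyond the lung and MLN of these 2 mice, libraries of other tissues and sorts were not analysed here. Results for some genes are not reported here.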

Additional observations from a re-analysis of the deposited data

Results flagged for a closer look

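The summed level of the MHC class I list was compared between CD3-negative cells without a full TCR and CD3-positive full TCR cells in lung and MLN of both mice. The sum was lower in CD3-negative cells than in full TCR cells in lung 2 and higher in both MLNs. Neither the differences nor the contrast between the organs was tested over mice. The sum of 7 MHC class I genes in CD3-negative cells minus that in full TCR cells was -426.4 CPM in lung 1 and -1729 CPM in lung 2, but 1350 CPM in MLN 1 and 1422 CPM in MLN 2. In lung 1 the sums were 5937 and 6363 CPM, a smaller gap than that between the full TCR cells of the 2 lungs (6363 and 7227 CPM), so that no direction is read for lung 1. The single genes went both ways: in the lungs, 3 of the 7 genes passed as higher in edgeR (H2-D1, H2-T23 and Tapbp), 2 as lower (H2-Q7 and Tap1), B2m and H2-K1 did not pass, and the median log2 fold change was -0.18 against -0.20 over all genes. With the mouse as a replicate block, 3 of the 7 genes were higher and 3 lower in the lungs. The MLN groups were small, with 36 and 23 CD3-negative cells.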

How the results depend on the processing

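Depth and the number of mice limit these results: the smallest lung group tested had 35 cells and 139875 UMIs, the smallest MLN group of CD3-negative cells without a full TCR 23 cells and 52422 UMIs, and 2 mice allow no exact p below 0.333. Alternatives for all 731 cells gave 623 genes with no filter on low counts, 881 with the mouse as a replicate block (its construction removes the shared mouse effect), 808 with the block and without the Il5-rich cell, and, leaving out 1 group sum at a time, 239 to 421 genes, where the lone sum is assumed to vary like the others. For CD3-positive cells, with 0 genes, DESeq2 gave 5, stricter contigs 2 (Pclaf and Rrm2), no filter 80, the replicate block 61, the block in clusters of mainly full TCR cells 165, the block without the Il5-rich cell 101, and leaving out 1 sum at a time 3 to 8. For CD3-negative cells, with 2263 genes, thinning to 2000 UMIs gave 1285 of 6348 tested, the replicate block 2665, no filter 2973, and leaving out 1 sum 1124 to 1865, the lowest without the CD3-negative cells of lung 1. Of 139 named genes that passed there, 101 kept direction and call in every alternative in which they were tested. Leaving out 1 sum at a time, Csf2 over all 731 cells ranged from -2.86 (log2) without lung 2 to 2.91, and for CD3-negative cells Tnf ranged from -0.22 without lung 1 to 4.26. In edgeR with the block, Csf2 over all 731 cells was at 1.04 (adjusted p = 4.001e-06). Without the Il5-rich cell it was at 0.0195 (adjusted p = 0.9845). The causes of these ranges were not tested. The share without a full TCR stayed higher in lung than in MLN under the alternatives run, but with stricter contigs it rose to 41.6 and 44.4% in the lungs and 17.6 and 22.4% in the MLNs, outside the intervals given above, and with at least 2000 UMIs per cell it was 29.3 and 29.2% in the lungs and 10.0 and 13.9% in the MLNs. The lung shares of CD3-negative cells, the sizes of clusters 8 and 9 and the chain matches within the lung stayed within their intervals or within 1 cell. A reference of CD3-negative full TCR cells was not run, because there was only 1 such cell. The block on clusters, the block without 1 cell and the fit without cluster 9 were chosen after the data were seen.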

Other observations

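The MLN of the same mice also held CD3-negative cells without a full TCR, 36 of 348 in mouse 1 and 23 of 145 in mouse 2, and their genes were of another kind. The basophil list summed to 740.0 and 686.7 CPM there, against 11603 and 11482 CPM in the lung, and at least 3 basophil genes were found in 2 of 36 and 2 of 23 cells. The macrophage and monocyte list summed to 24172 and 14860 CPM, led by Lyz2 at 15227 and 9767 CPM, and the dendritic list to 14552 and 24341 CPM, led by the MHC class II chaperone gene Cd74. The B-cell list summed to 2376 and 3949 CPM, led by Cd79a, against 3.47 and 378.9 CPM in the lung. Cd4, the gene of the sorted surface marker, was the most abundant T-cell gene in these MLN cells, at 376.5 and 190.8 CPM, whereas it was at 17.3 and 7.15 CPM in the lung cells. The 2 organs did not overlap for any of these values, and the difference was not tested.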
